A study of Arabidopsis thaliana with 6 samples.

Results

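A group of 10 genes of oxylipin metabolism were followed in germinated Arabidopsis seeds, in which desiccation tolerance had or had not been re-established. They were chosen by locus identifier and are LOX1, LOX2, LOX3 and LOX5 (lipoxygenases), AOS (allene oxide synthase), AOC2 (an allene oxide cyclase), OPR1, OPR2 and OPR3 (oxophytodienoate reductases) and HPL1 (hydroperoxide lyase). All 10 were found among the 30509 genes of the array table. Both groups were seeds of accession Col-0, the wild type, which were stratified in the cold and germinated in water under constant white light until the radicle protruded. The desiccation-sensitive seeds (DS) were collected at that point without treatment. The desiccation-tolerant seeds (DT) were then kept for 3 d in the dark in polyethylene glycol (PEG), an osmoticum that withdraws water, at -2.5 MPa, and rinsed. Each group had 3 biological replicates, each a pool of whole germinated seeds hybridized to 1 Affymetrix SNPtile array. PEG, darkness and the time since germination differed together between the groups and cannot be told apart.

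Jasmonates are fatty acid hormones that plants make from linolenic acid of plastid membranes. A lipoxygenase adds oxygen to the fatty acid, AOS turns the hydroperoxide into an allene oxide, and an allene oxide cyclase closes the ring to give oxophytodienoic acid (OPDA). OPDA moves to the peroxisome, where OPR3 reduces its ring and beta-oxidation shortens its side chain to jasmonic acid. JAR1 joins the acid to isoleucine, and the conjugate brings the receptor COI1 together with JAZ repressors, which are then degraded and release transcription factors such as MYC2. In Arabidopsis this hormone is best known for wound and insect defence and for stamen development, and in seeds OPDA is known to restrain germination together with abscisic acid. LOX2 and LOX3 oxygenate the carbon that feeds this route. LOX1 and LOX5 oxygenate another carbon, and their products do not become jasmonate. HPL1 cleaves the same hydroperoxide that AOS uses, which leads to leaf volatiles.

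In DT, 5 of the 10 genes were lower, 0 were higher and 5 did not pass the test. LOX1, OPR1 and OPR2 fell by more than 2-fold, AOS and AOC2 fell by less, and LOX2, LOX3, LOX5, OPR3 and HPL1 had adjusted p-values above 0.05. AOC2 was below the background level given further on in both groups, so its difference tells little. The test was limma's moderated test on the log2 values of all genes, and a gene passed at a Benjamini-Hochberg adjusted p of at most 0.05. Over the whole array 29.9% of genes passed, 19.9% lower and 9.97% higher, against 50% and 0% of the 10 genes. Of all genes that passed, 66.7% were lower, and this share was 56.3% with arrays centred on their medians and 52.8% with quantile normalization repeated. The study's own filter, a change of 2-fold or more whose p before adjustment was 0.05 or less, was met by 2.22% of all genes (1.36% lower and 0.862% higher), and by 3 of the 10 genes, all lower. The DS and DT arrays did not overlap in 6 of the 10, each with DT lower, as in 27% of all genes (42.4% in either direction). The median log2 difference, DT minus DS, was -0.18 in the 10 genes and -0.02 in all genes. RNA was taken from whole seeds, so fewer cells of a type and less RNA per cell cannot be told apart in any of these values.

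The sequences upstream of 4 of these genes are shown because they bracket the result. LOX1 and OPR1 fell by more than 2-fold, AOS fell by less, and OPR3 did not pass the test. Each stretch is the 250 bases before the annotated gene start in RefSeq's TAIR10.1, written from 5′ to 3′ on the strand of the gene. Capitals mark matches on either strand to CACGTG (G-box, the element that MYC factors bind), ACGTG (core of the abscisic acid-responsive element), CCGAC (core of the dehydration-responsive element), TGACG (core bound by TGA factors) and TTGAC (core of the W-box bound by WRKY factors). ACGTG lies within CACGTG, and TTGAC and TGACG can share the bases TGAC.
LOX1 promoter, chr1:20525404-20525653, plus strand: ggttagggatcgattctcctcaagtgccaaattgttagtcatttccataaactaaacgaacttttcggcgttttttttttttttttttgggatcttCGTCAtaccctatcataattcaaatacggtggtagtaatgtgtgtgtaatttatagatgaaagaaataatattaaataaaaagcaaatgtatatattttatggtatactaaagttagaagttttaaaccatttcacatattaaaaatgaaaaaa
OPR1 promoter, chr1:28776376-28776625, plus strand: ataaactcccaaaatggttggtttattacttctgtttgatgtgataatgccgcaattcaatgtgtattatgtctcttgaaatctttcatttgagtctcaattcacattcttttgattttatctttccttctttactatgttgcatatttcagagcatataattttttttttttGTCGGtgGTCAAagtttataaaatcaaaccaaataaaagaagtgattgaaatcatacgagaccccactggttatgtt
AOS promoter, chr5:17099596-17099845, minus strand: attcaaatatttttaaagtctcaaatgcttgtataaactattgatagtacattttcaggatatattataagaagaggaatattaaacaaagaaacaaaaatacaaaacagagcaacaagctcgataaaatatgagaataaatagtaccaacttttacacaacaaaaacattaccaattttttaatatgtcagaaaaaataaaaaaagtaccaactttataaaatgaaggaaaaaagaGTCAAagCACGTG
OPR3 promoter, chr2:2362376-2362625, minus strand: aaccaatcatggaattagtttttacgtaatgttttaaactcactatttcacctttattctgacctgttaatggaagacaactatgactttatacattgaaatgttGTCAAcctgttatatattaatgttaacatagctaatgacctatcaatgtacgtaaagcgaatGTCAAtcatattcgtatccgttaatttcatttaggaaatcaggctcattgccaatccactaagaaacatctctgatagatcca

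LOX1 held 1 match, to TGACG, and it held none to ACGTG. OPR1 held 1 match to CCGAC and 1 to TTGAC. In AOS, CACGTG took the last 6 bases before the gene start, with ACGTG matched within it on both strands. AOS also held a match to TTGAC, at bases 13 to 9 before the start. OPR3 held 2 matches, both to TTGAC. Of 25955 promoters of protein-coding genes on the array, 6.68% held CACGTG, 23.2% ACGTG, 12.0% CCGAC, 18.7% TGACG and 45.0% TTGAC in the same window. Among the 10 genes the counts were 1 for CACGTG, 2 for ACGTG, 2 for CCGAC, 2 for TGACG and 7 for TTGAC. These matches describe letters and not bound sites.

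OPR1 and OPR2 lie next to each other on the plus strand of chromosome 1, and short windows upstream of both are shown because the pair moved together. In the first 2 windows of 30 bases, capitals mark matches to CCGAC and TTGAC, and in the next 2 they mark a run of 16 letters that both genes share further upstream.
OPR1 near window, chr1:28776540-28776569, plus strand: tttttttttGTCGGtgGTCAAagtttataa
OPR2 near window, chr1:28778559-28778588, plus strand: ttttttttgGTCGGtgGTCAAagttataca
OPR1 far window, chr1:28776398-28776427, plus strand: ttattacTTCTGTTTGATGTGATaatgccg
OPR2 far window, chr1:28778440-28778469, plus strand: tgttgatTTCTGTTTGATGTGATcatgccg

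The near windows of both genes hold CCGAC and TTGAC on the minus strand in the same order and spacing, in a common run of 16 letters. That run was found in 2 of the 25955 promoters, those of OPR1 and OPR2. The run in the far windows is 16 letters long and was likewise found in 2 promoters. Both runs were chosen as the longest match between these 2 genes, in the near windows and in the 250 upstream bases. A count of at least 2 was therefore fixed by the choice. Whether either run has a part in expression was not tested. OPR1 spans 28776626 to 28778837 and OPR2 28778622 to 28780483, so the annotated genes overlap by 216 bases, and all 250 bases before OPR2 lie after the stop codon of OPR1 within its annotated exons. Their coding sequences were identical at 91.7% of 1119 aligned bases, while OPR3 had 61.9% identity to OPR1 and 60.5% to OPR2. Of the 2017 windows of 25 bases in the OPR1 transcript, 402 also occur in OPR2, of which 192 lie in the overlap and 210 elsewhere. In the OPR2 transcript 454 of 1583 windows occur in another gene, 402 in OPR1 and 52 in AT1G76700. How the probes of the array were shared out between the genes is not given in the sources used here, so the signals of OPR1 and OPR2 may hold common probes and are uncertain as separate measurements.

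LOX1 (AT1G55020, chromosome 1 from 20525654 to 20530468, 8 exons) encodes the lipoxygenase whose products lie outside the jasmonate route. In DS its log2 signals were 6.22, 6.26 and 6.33, and in DT 5.08, 4.97 and 4.96. Every DT array lay below every DS array, with a gap of 1.13 between the groups. LOX1 fell from 6.27 ± 0.06 to 5.01 ± 0.07 (SD, n = 3), a log2 difference of -1.26 ± 0.055 (SE; limma adjusted p = 3.12e-06). This is 2.4-fold lower, and 0.672% of all genes fell further. LOX5 (AT3G22400), the other lipoxygenase of that class, had log2 signals of 4.70, 4.67 and 4.68 in DS and 4.60, 4.56 and 4.55 in DT. The groups of LOX5 did not overlap, but the log2 difference of -0.11 had a 95% confidence interval from -0.22 to -0.01 and did not pass (adjusted p = 0.0878 from limma).

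The array tells little of genes near its background. The level below which 95% of 2862 annotated pseudogenes lay was 4.93 in DS and 4.96 in DT, and 62.4% and 68.2% of all genes were below it. By this measure 5 of the 10 genes were above background in DS and 2 in DT, LOX1 and OPR3. LOX2, LOX3, LOX5, AOC2 and HPL1 were below it in both groups. The values of OPR1, OPR2 and AOS in DT were below it as well, so the size of their falls is bounded by the background. LOX1 in DT, at 5.08, 4.97 and 4.96, lay close to the DT level of 4.96, so its fall may be bounded too.

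**Figure D1:**
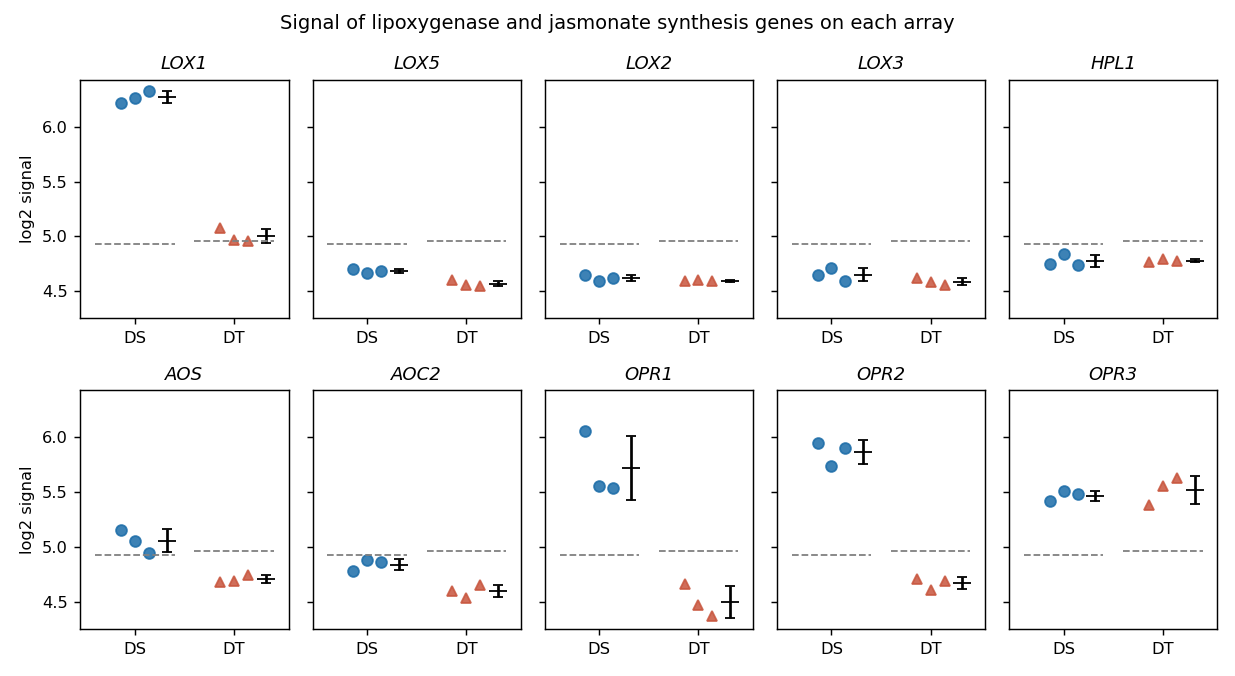
Log2 signal (y axis) of the 10 genes on the 3 DS arrays (circles) and 3 DT arrays (triangles), with the mean and SD beside the points. Dashed lines mark the level below which 95% of pseudogenes lie, 4.93 in DS and 4.96 in DT. LOX1 goes from 6.27 to 5.01, OPR1 from 5.72 to 4.50 and OPR2 from 5.86 to 4.67, while OPR3 is above the line in both groups.

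LOX2 and LOX3, the lipoxygenases among the 10 genes that feed jasmonate, were dim and did not pass the test. LOX2 (AT3G45140), the chloroplast enzyme of wounded leaves, was at 4.65, 4.59 and 4.62 in DS and 4.59, 4.60 and 4.59 in DT on the log2 scale. Its groups overlapped, and the log2 difference was -0.03 with a 95% confidence interval from -0.13 to 0.07 (adjusted p = 0.716 from limma). With arrays centred on their medians the difference turned to 0.02. LOX3 (AT1G17420), which acts in stamens and in wound responses, was at 4.65, 4.71 and 4.59 in DS and 4.62, 4.58 and 4.56 in DT. Its groups overlapped too, with a log2 difference of -0.06, an interval from -0.18 to 0.05 and an adjusted p of 0.413 from limma.

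At the branch that follows, AOS passed the test and HPL1 did not. AOS (AT5G42650, chromosome 5 from 17097564 to 17099595, 1 exon), the P450 enzyme that commits the hydroperoxide to jasmonate, was at 5.16, 5.06 and 4.95 in DS and 4.68, 4.69 and 4.75 in DT. No DT array reached the lowest DS array. AOS fell from 5.06 ± 0.10 to 4.71 ± 0.04 (SD, n = 3), a log2 difference of -0.35 ± 0.061 (SE; limma adjusted p = 0.00322). HPL1 (AT4G15440), a P450 enzyme related to AOS whose gene is known to be disrupted in Col-0, was at 4.75, 4.84 and 4.74 in DS and 4.77, 4.79 and 4.78 in DT. All its DT values fell within the DS range, and the log2 difference of 0.01 had an interval from -0.10 to 0.11. Without DS replicate 1 or DS replicate 3 it was -0.01.

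AOC2 (AT3G25770, chromosome 3 from 9406669 to 9408071, 2 exons), which makes OPDA, was at 4.78, 4.88 and 4.86 in DS and 4.60, 4.54 and 4.65 in DT. The groups did not overlap. AOC2 fell from 4.84 ± 0.05 to 4.60 ± 0.05 (SD, n = 3), a log2 difference of -0.24 ± 0.052 (SE; limma adjusted p = 0.00855). Both means were below the pseudogene level, so this difference tells little. In the transcript of AOC2, 80 of 1276 windows of 25 bases also occur in AOC1 or AOC3, its neighbours on the chromosome, so part of its signal could be theirs.

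The reductases parted. OPR1 (AT1G76680), which acts poorly on the natural OPDA isomer, was at 6.06, 5.56 and 5.54 in DS and 4.66, 4.47 and 4.37 in DT. DS replicate 1 stood above the other DS arrays, and all DS arrays lay above all DT arrays. OPR1 fell from 5.72 ± 0.30 to 4.50 ± 0.14 (SD, n = 3), a log2 difference of -1.22 ± 0.143 (SE; limma adjusted p = 0.000402), and the difference was -1.05 to -1.31 with each array left out in turn. OPR2 (AT1G76690), the neighbouring copy, was at 5.95, 5.74 and 5.90 in DS and 4.71, 4.61 and 4.69 in DT. The groups were 1.03 log2 units apart. OPR2 fell from 5.86 ± 0.11 to 4.67 ± 0.05 (SD, n = 3), a log2 difference of -1.20 ± 0.065 (SE; limma adjusted p = 9.03e-06).

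OPR3 (AT2G06050, chromosome 2 from 2359114 to 2362375, 5 exons), the peroxisomal reductase on the main route to jasmonic acid, was at 5.42, 5.51 and 5.48 in DS and 5.38, 5.56 and 5.63 in DT. DT replicate 1 was the lowest of all 6 arrays and DT replicate 3 the highest. The log2 difference was 0.06 with an interval from -0.11 to 0.22 (adjusted p = 0.643 from limma).

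The contrast between close relatives was tested on the difference of their log2 signals within each array. OPR1 minus OPR3 went from 0.25 in DS to -1.02 in DT on average, and OPR2 minus OPR3 from 0.40 to -0.86. In both pairs the DS and DT arrays did not overlap, and the exact two-sided permutation test gave p = 0.1, the smallest that 3 against 3 arrays allow, and 0.133 after adjustment over the 4 pairs compared, so this test could not pass a threshold of 0.05 with these arrays. OPR1 minus OPR2 was -0.14 in DS and -0.17 in DT on average, and its groups overlapped (p = 1, exact two-sided permutation test). The remaining pair, LOX1 and LOX5, gives no contrast, because LOX5 was below the pseudogene level in both groups and the difference restates the fall of LOX1.

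**Figure D2:**
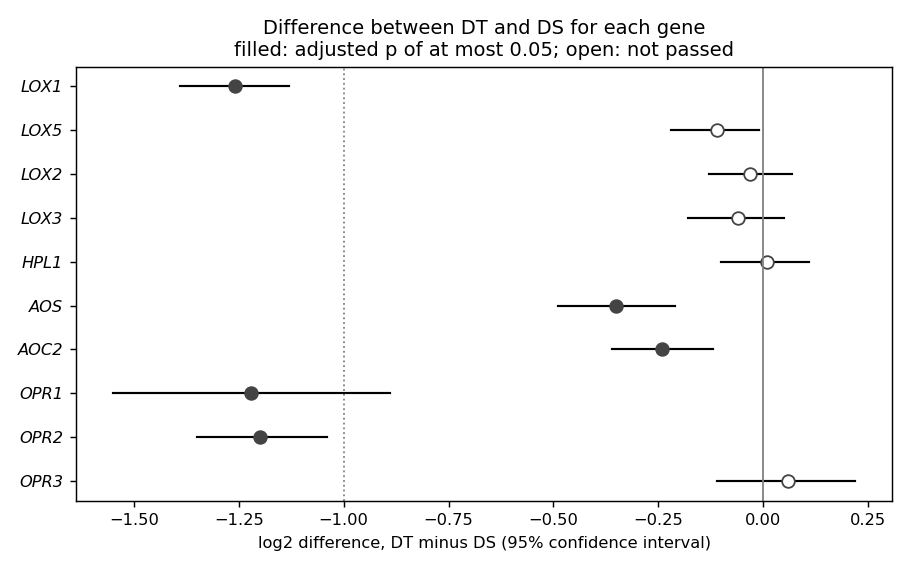
Log2 difference, DT minus DS (x axis), of the 10 genes with limma's 95% confidence interval, where filled points passed the adjusted test. LOX1 and OPR2 have intervals wholly below -1, marked by the dotted line, that of OPR1 reaches -0.89, and the 5 open points lie between -0.11 and 0.06.

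**Figure D3:**
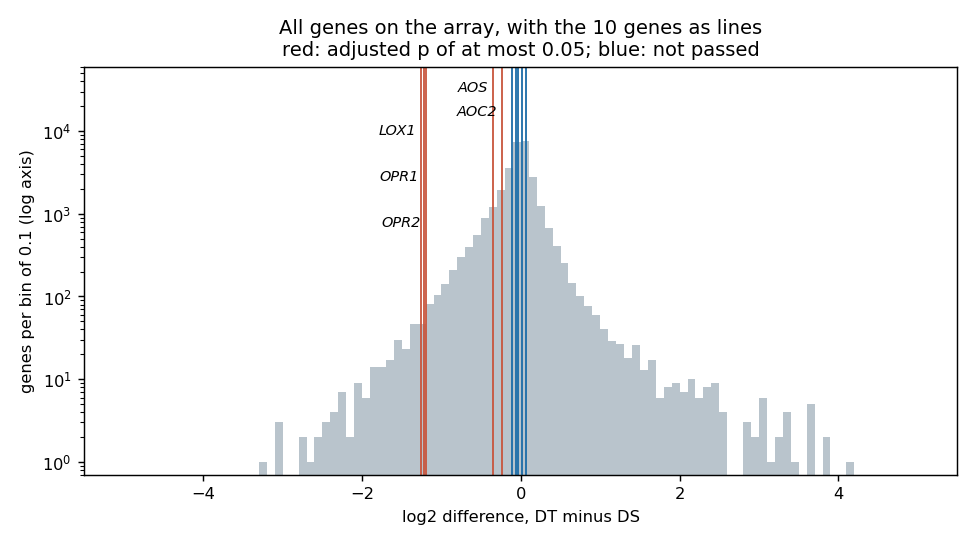
Number of genes (log axis) per bin of 0.1 in the log2 difference, DT minus DS, for all 30509 genes, with the 10 genes as vertical lines, red where the adjusted test was passed and blue where it was not. LOX1, OPR1 and OPR2 sit together between -1.26 and -1.20, where at most 0.767% of genes fell further, and the blue lines stand in the central peak.

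Likeness in pattern was measured as the root mean square difference between genes, over the 6 arrays, of log2 signals from which each gene's own mean was taken. The 5 genes nearest to LOX1 of all genes on the array were scpl25 (a serine carboxypeptidase-like gene, 0.0334), EXL4 (EXORDIUM-like, 0.0352), FRO3 (a ferric reduction oxidase, 0.0382), KCS10 (the ketoacyl-CoA synthase FIDDLEHEAD, 0.0387) and AT5G35740 (0.0428). Their log2 differences ran from -1.29 to -1.20. Of the other 9 genes OPR2 was the nearest to LOX1, at 0.0865 and rank 71 of all genes, followed by OPR1 at 0.205 and rank 470. With 2 groups of arrays, likeness mostly reflects a like size of the difference between DT and DS.

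**Figure D4:**
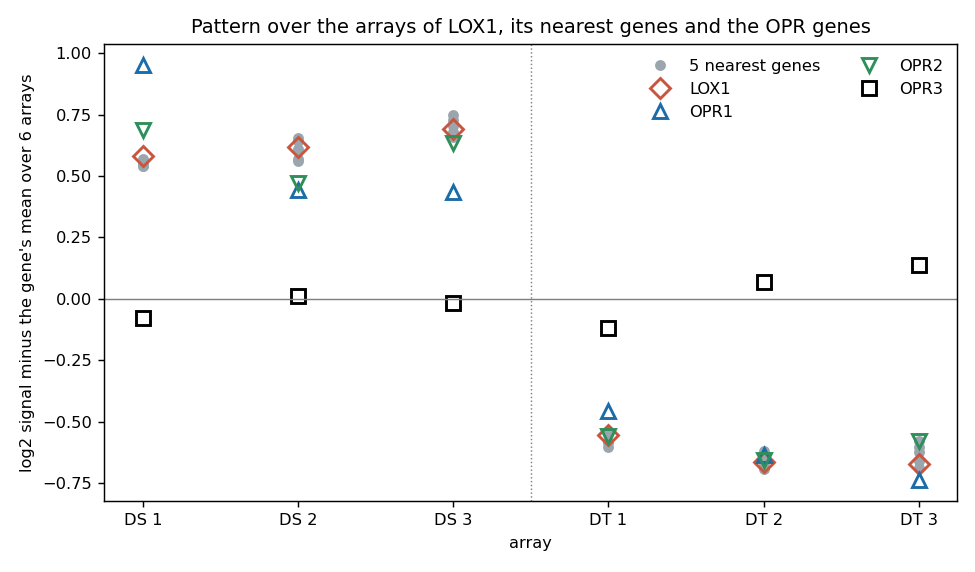
Log2 signal minus the gene's mean over the 6 arrays (y axis) on each DS and DT array for LOX1 (diamonds), its 5 nearest genes (grey), OPR1, OPR2 (triangles) and OPR3 (squares). LOX1 and its nearest genes almost coincide, OPR1 is higher on DS replicate 1 than on the other DS arrays, and OPR3 stays near 0 throughout.

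Around the 10 genes, 62 others of jasmonate and oxylipin metabolism and signalling were placed in 8 lists by role. Of these, 18 were lower in DT, 5 were higher and 39 did not pass, or 29% lower and 8.06% higher beside 19.9% and 9.97% of all genes. None met the 2-fold filter in either direction. The median log2 difference was -0.09. In DS 29 of the 62 were above the pseudogene level and in DT 22. Among those that passed, LOX6, AOC3, FAD8, JAZ1 and CLH1 were below it in DT, so the size of their falls is bounded by the background. JAZ9, JAZ10, JOX2 and DOX1 were below it in both groups, so their differences tell little. MYC3 was below it in DS, which bounds the size of its rise. Genes that passed in a list are named after their values were seen, except those with the largest rise and fall of each list, which a rule named.

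The remaining lipoxygenases and cyclases and the genes that supply linolenate were lower or did not pass. Of LOX4, LOX6, AOC1, AOC3 and AOC4, 2 were lower, or 40% beside 19.9% of all genes. AOC3 (AT3G25780), a cyclase gene beside AOC2, was at 5.39, 5.38 and 5.34 in DS and 4.69, 4.63 and 4.52 in DT, a log2 difference of -0.76 (adjusted p = 3.69e-05 from limma). LOX6 had a log2 difference of -0.17 and did not pass without DS replicate 2, DS replicate 3 or DT replicate 3 (adjusted p = 0.0603, 0.071 and 0.0588 from limma), nor after centring of the arrays (0.0554) or a repeat of the quantile normalization (0.096). Among 5 supply genes, all 3 desaturases that make linolenate were lower, or 60% of that list. FAD7, the plastid desaturase, fell from 6.21, 6.19 and 6.29 to 5.69, 5.44 and 5.52, a log2 difference of -0.68 (adjusted p = 0.000195 from limma), and FAD8 and FAD3 had differences of -0.52 and -0.39. The lipase genes DAD1 and DGL had differences of 0.06 and 0.04 and did not pass. Both lipase genes were below the pseudogene level in DS and in DT, so their differences tell little.

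Of 7 genes for peroxisomal import and beta-oxidation, which also serve the breakdown of seed oil, 4 were lower. This is 57.1%, beside 19.9% of all genes. However, all 7 were above the pseudogene level in both groups, while 62.4% of all genes in DS and 68.2% in DT were below it. With genes dimmer than the median gene left out, 5590 of 15255 genes were lower. MFP2, a multifunctional beta-oxidation protein, fell from 7.15, 7.17 and 7.19 to 6.67, 6.82 and 6.78, a log2 difference of -0.41 (adjusted p = 0.000611 from limma). ACX1 and KAT2 had differences of -0.39 and -0.36. OPCL1, the ligase that activates the OPDA-derived acid in the peroxisome, had a difference of -0.22 (adjusted p = 0.0267) and did not pass with arrays centred (0.0626), with quantile normalization repeated (0.162), with the replicate block (0.065) or without DS replicate 1, DS replicate 2, DT replicate 1 or DT replicate 2 (0.0865, 0.0958, 0.0665 and 0.088, all from limma). The importer PXA1 and AIM1 and ACX5 did not pass.

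Among 12 genes of conjugation, methylation and turnover, 3 were lower and 1 was higher. These shares of 25% and 8.33% are close to the 19.9% and 9.97% of all genes. ILL6, an amidohydrolase that splits the isoleucine conjugate, rose from 5.07, 5.07 and 5.07 in DS to 5.37, 5.37 and 5.46 in DT, a log2 difference of 0.33 (adjusted p = 0.00109 from limma). IAR3, an amidohydrolase of the same family, fell from 5.62, 5.66 and 5.75 to 5.08, 5.36 and 5.32, a difference of -0.43 (adjusted p = 0.00488). JAR1, which makes the active conjugate, and JOX2, a jasmonate hydroxylase, both had differences of -0.31. JAR1 did not pass without DS replicate 2 or DS replicate 3 (adjusted p = 0.0603 and 0.0644), nor JOX2 without DS replicate 1 (0.0572).

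Of 5 genes of perception and MYC factors, 3 were higher and 1 was lower, or 60% and 20% beside 9.97% and 19.9% of all genes. MYC3, a partner of MYC2, rose from 4.88, 4.86 and 4.84 to 5.18, 5.35 and 5.28, a log2 difference of 0.41 (adjusted p = 0.000895 from limma). NINJA, the adaptor that links JAZ proteins to a corepressor, rose by 0.32 on the log2 scale. The receptor gene COI1 had a difference of 0.26 and did not pass without DS replicate 1, DS replicate 2, DT replicate 2 or DT replicate 3 (adjusted p = 0.0759, 0.0812, 0.0775 and 0.0737). MYC2 was at 5.29, 5.37 and 5.27 in DS and 5.03, 5.07 and 5.17 in DT, a difference of -0.22 (adjusted p = 0.0196), and did not pass with quantile normalization repeated (0.102) or without DS replicate 2, DT replicate 1 or DT replicate 2 (0.0772, 0.0502 and 0.0636).

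Of 13 JAZ repressor genes, which MYC2 is known to activate when jasmonate is present, 3 were lower and 0 higher. The share lower was 23.1%, close to the 19.9% of all genes. JAZ1 was at 5.92, 5.69 and 5.70 in DS and 4.74, 4.94 and 4.82 in DT, and fell by 0.94 on the log2 scale (adjusted p = 7.39e-05 from limma). JAZ10 and JAZ9 had differences of -0.29 and -0.21. The other 10 JAZ genes had differences from -0.20 to 0.18 and did not pass. Of 12 genes known to respond to jasmonate in leaves or flowers, 1 was lower, or 8.33% beside 19.9% of all genes. It was CLH1 (a chlorophyllase), which went from 5.33, 5.33 and 5.43 to 4.74, 4.69 and 4.61. The remaining 11, among them VSP1, VSP2 and PDF1.2, were below the pseudogene level in both groups. In a list of 3 other oxylipin enzymes, the alpha-dioxygenase gene DOX2 rose from 4.95, 5.04 and 5.01 to 5.56, 5.49 and 5.52, a difference of 0.52 (adjusted p = 1e-04). DOX1 had a difference of -0.30 (adjusted p = 0.0487) and did not pass with arrays centred (0.0715), with quantile normalization repeated (0.0541) or with any array but DS replicate 1 left out (0.0801 to 0.14).

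**Figure D5:**
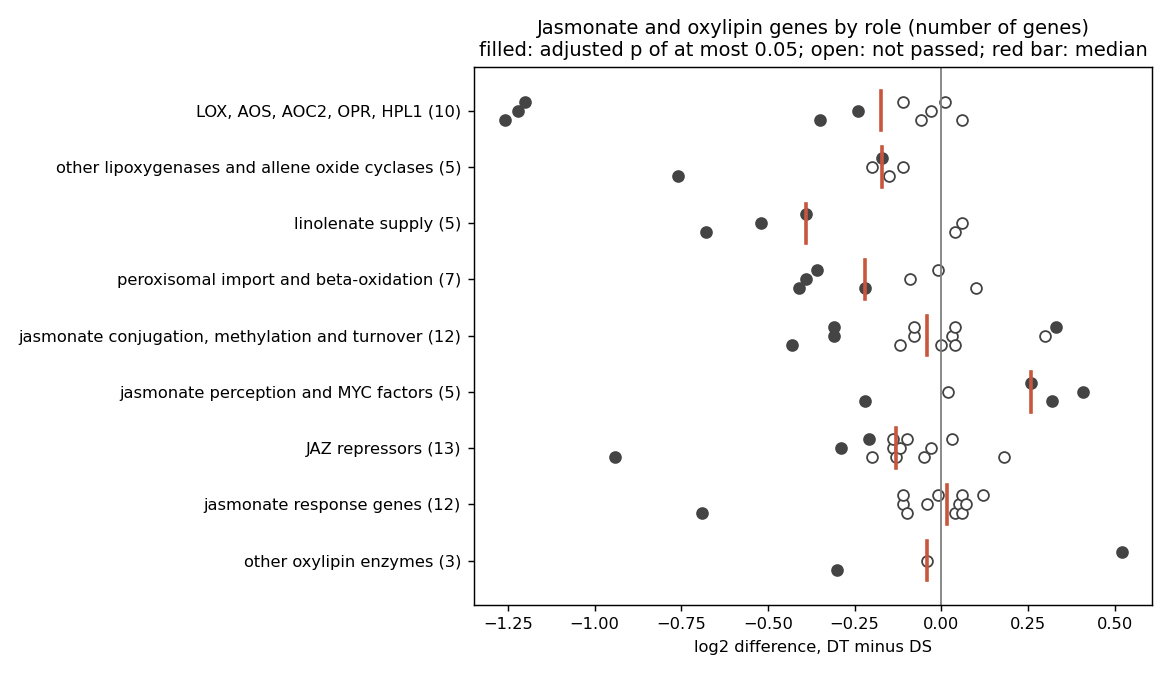
Log2 difference, DT minus DS (x axis), of each gene in the lists of jasmonate and oxylipin genes (rows, number of genes in brackets), where filled points passed the adjusted test and red bars are medians. The list of COI1, MYC factors and NINJA has its median at 0.26, while the lists of supply and peroxisomal genes have medians of -0.39 and -0.22.

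Some features of the samples moved with these results. Arrays correlated at 0.957 to 0.977 within a group and at 0.798 to 0.819 between groups. Of 4 seed maturation markers all 4 rose, and their summed log2 signal went from 19.77 to 20.19 in DS to 33.93 to 34.56 in DT. Of 4 markers of the germinating endosperm 2 rose, with sums of 21.98 to 22.47 and 23.52 to 24.89, while 3 seed coat markers were below the pseudogene level in both groups and 1 of 3 root tip markers, SCR, was above it in both. Of 6 photosynthesis and light-stress genes 4 fell, with sums of 42.75 to 42.96 in DS and 35.32 to 36.98 in DT. Of 3 dark-induced genes 1 rose and 1 fell. The part of these changes in the values of the 10 genes was not tested.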

How the data were processed

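The 6 arrays comprised 3 of DS and 3 of DT, grouped by their labels. The authors read the Affymetrix SNPtile arrays in R against TAIR9 gene models and quantile-normalized them. The deposited table holds a log2 value for each gene and array. How probes were summarised, how background was treated and whether strand was used are not given in the sources used here. Precision is limited by the 3 arrays per group.

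DT was compared with DS on the deposited values of all 30509 genes by limma 3.58.1 under R 4.3.3 (functions lmFit and eBayes, without covariates), with Benjamini-Hochberg adjustment over all genes. In simulated data for the 30509 genes, in which 200 were changed by 1.5 on the log2 scale, the 2-fold filter found all 200 and 0 others, and the adjusted test found 197 and 7 others. That change is larger than the largest among the 10 genes, -1.26 in LOX1. Noise was drawn independently for each gene, and in the real data 29.9% of genes passed. The simulation therefore checks the code and does not measure how well smaller changes are found. The design named the 10 genes, the largest rise and fall of each list, and the 5 genes nearest to the members with the largest rise and fall. No member passed as higher, so the last was done for LOX1 alone. The members, lists and motifs were chosen with earlier results of these data known. Of the 30509 loci, 30078 were found in RefSeq's TAIR10.1, from which all positions, names and sequences were read with Python 3.11.15 and Biopython 1.88. Alternatives covered centring, repeated quantile normalization, dim genes, the variance model, the replicate block, each array left out and a Bonferroni adjustment.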

Additional observations from a re-analysis of the deposited data

How the results depend on the processing

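The counts of 5 lower and 0 higher among the 10 genes, and of 3 past the 2-fold filter, were the same under every other setting but the following. With genes dimmer than the median gene (4.76) left out, which leaves 6 of the 10, 4 were lower. With a Bonferroni adjustment 2 were lower, LOX1 and OPR2, and of the 62 other jasmonate and oxylipin genes 1 was lower, AOC3, and 0 were higher. With each array left out the counts for those 62 were 13 to 18 lower and 4 to 5 higher. They were 15 and 5 after centring of the arrays, and 14 and 7 after a repeat of the quantile normalization. Of the 10 genes, LOX2 changed sign with arrays centred (0.02) and HPL1 with DS replicates left out, ranging from -0.01 to 0.04 when each array was left out in turn. The median of all genes shifted by less than 0.1 on the log2 scale. With quantile normalization repeated that shift was 0.031, and some single genes moved further. LOX1 went from -1.26 to -1.15, ACX1 from -0.39 to -0.26 and OPR3 from 0.06 to 0.15 (limma adjusted p = 0.0913 for OPR3). The deviations of same-numbered DS and DT arrays correlated at 0.061, -0.01 and 0.1, so the numbers were not taken as pairs. Even so, 2 of the 3 DS arrays correlated best with the DT array of their own number. With the replicate block 5 of the 10 genes were lower, and 18 of the 62 others were lower and 6 higher.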
